A study of Mus musculus with 12 samples.

Results

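The effect of Flt3L was measured over both genotypes at once, in cDC1s sorted from B16F10 melanomas on day 13 of tumor growth. The members were all 12 libraries of the series, namely 6 from mice given a plasmid encoding Flt3L (FL) and 6 from mice given an empty plasmid (control), and they were chosen by the plasmid alone, with genotype as a covariate. The FL libraries were 3 from Clec9agfp/gfp mice, which lack DNGR-1, and 3 from WT mice, and so were the control libraries. Plasmids were delivered by hydrodynamic tail vein injection 1 day before the tumor cells, so controls had the same injection without Flt3L. Mice were C57BL/6 or backcrossed to it and 7 to 10 weeks old, males or females matched by sex. Cells pooled from 2 to 3 mice made up each library. They were enriched for CD11c and gated on CD103 and CD24 among CD45 and MHCII positive cells that lacked Ly6C, F4/80 and CD11b. The comparison asks which transcripts of tumor cDC1s differed under systemic Flt3L on average over both genotypes. A gene can be called on this average though its change lies mainly in 1 genotype.

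cDC1s are the dendritic cells that depend on *Batf3* and excel at cross-presenting antigens of dead cells to CD8+ T cells. Flt3L binds the receptor tyrosine kinase Flt3 on their progenitors and on the cells themselves and drives their expansion. When dendritic cells mature they leave the cycle, raise the chemokine receptor CCR7, costimulatory ligands and cytokines such as IL-12, and migrate to lymph nodes.

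*Clec9a*, which encodes DNGR-1, checked the labels. It lay between 288 and 388 CPM (CPM, counts over the TMM-scaled library size in M) in all 6 WT libraries and between 0.269 and 10.9 CPM in all 6 Clec9agfp/gfp libraries, and the highest of these was Clec9agfp/gfp control 3. *Flt3* itself ranged from 580.1 to 790.1 CPM in FL cDC1s and from 569 to 712 CPM in control cDC1s, which is 0.07 on the log2 scale for FL over control (limma, SE 0.12, adjusted p = 0.738). The effective library sizes were 19.99 to 25.9 M counts in FL and 3.06 to 21.05 M in control libraries, so depth moved with the plasmid, and Clec9agfp/gfp control 3 was the shallowest. Clec9agfp/gfp FL 3, WT control 1 and WT control 3 stood apart on the first principal component, which held 32.9% of the variance.

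With Flt3L, 975 genes rose and 767 fell among 11255 tested (limma on log2(CPM + 1) with genotype as a covariate, Benjamini-Hochberg adjusted p under 0.1). These were 8.66% and 6.81% of all genes tested, or 15.5% in either direction, and the median log2 fold change of all genes was −0.0019. The counts given below for each list stand against these shares. Rises were 56.0% of the calls, and 68.6% of them when the columns were scaled to equal totals (1077 rises and 493 falls). The rises were larger than the falls, with 251 genes at a log2 fold change of at least 1 and 151 at −1 or lower. The median was 0.80 among genes that rose and −0.68 among genes that fell. In 327 of the called genes the 6 FL and the 6 control libraries did not overlap, in 198 with all FL libraries above and in 129 with all FL libraries below. Over all genes tested, called or not, all FL libraries lay above the controls in 1.81% and below them in 1.26%. The pools came from 3 independent experiments, but no source ties a library or a replicate number to an experiment, so the p values measure the spread between these pools.

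**Figure D1:**
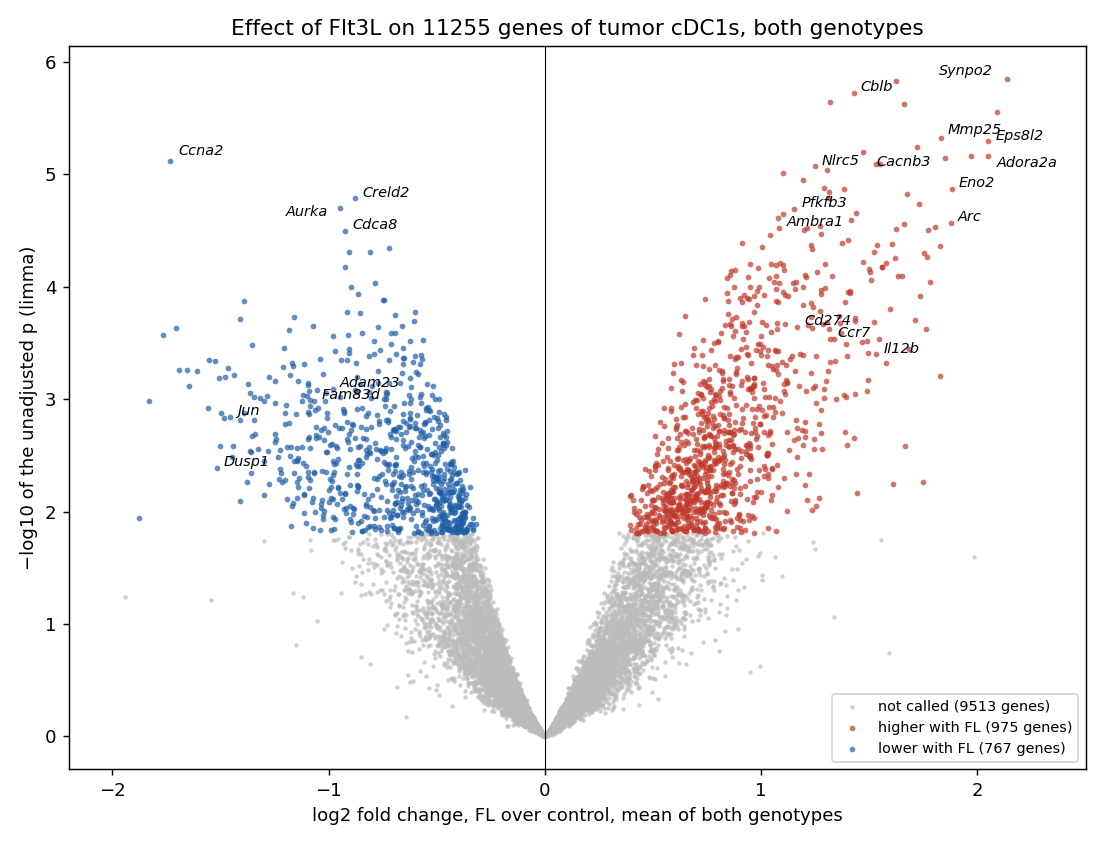
Log2 fold change of FL over control (x axis, mean of both genotypes) against −log10 of the unadjusted limma p (y axis) for each gene tested, with the genes called higher in red, those called lower in blue and the rest in grey. The 975 genes that rose reach further from 0 than the 767 that fell, and *Ccna2*, at a log2 fold change of −1.74, has the smallest p among the falls.

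The 10 largest rises without overlap were headed by *Synpo2*, *Eps8l2* and *Adora2a*. *Synpo2*, an actin-binding protein of the synaptopodin family (ENSMUSG00000050315, chromosome 3, 123076519 to 123236149 on GRCm38), had 13.3, 21.4 and 60.5 CPM as the lowest, median and highest FL library, against 2.48, 3.69 and 8.58 CPM in control libraries. Every FL library was above every control library, and the highest was Clec9agfp/gfp FL 3. Its log2 fold change was 2.14 (SE 0.29, adjusted p = 0.00517), with 1.88 in WT and 2.40 in Clec9agfp/gfp cDC1s. *Eps8l2*, an actin regulator, had 14.9, 17.7 and 41.5 CPM in FL and 1.14, 5.01 and 7.98 CPM in control libraries (log2 fold change 2.05, SE 0.31, adjusted p = 0.00561). *Adora2a*, a receptor for adenosine (chromosome 10, 75316877 to 75334784), had 14.0, 15.8 and 58.0 CPM with FL and 1.84, 3.82 and 9.05 CPM without it. The same shape returned here, as 5 FL libraries were close together and Clec9agfp/gfp FL 3 was far above them (log2 fold change 2.05, SE 0.32, adjusted p = 0.00561).

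*Cacnb3*, the beta3 subunit of voltage-gated calcium channels and a marker of mature migratory dendritic cells, had 218, 284 and 758 CPM in FL and 38.3, 81.8 and 179.8 CPM in control cDC1s (log2 fold change 1.85, SE 0.29, adjusted p = 0.00561). *Mmp25*, a membrane-bound metalloproteinase, had 102, 125 and 324 CPM with FL against 16.8, 44.4 and 68.6 CPM in controls (log2 fold change 1.83). Both were abundant enough that counting error is small beside the spread between pools. *Arc*, an activity-regulated cytoskeletal gene known from neurons, and *Eno2*, an enolase, each had a log2 fold change of 1.88. The remaining ones were *Dscaml1*, a cell adhesion gene (1.78), *Snn* (1.77) and *Tmtc2*, of a family of mannosyltransferases (1.72). *Eno2*, *Dscaml1* and *Tmtc2* were low, with medians of 1.63, 1.91 and 2.32 CPM in control libraries, where a pseudocount of 1 understates the fold. For 9 of the 10 the call held under each of 26 alternative settings, *Dscaml1* being the exception.

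**Figure D2:**
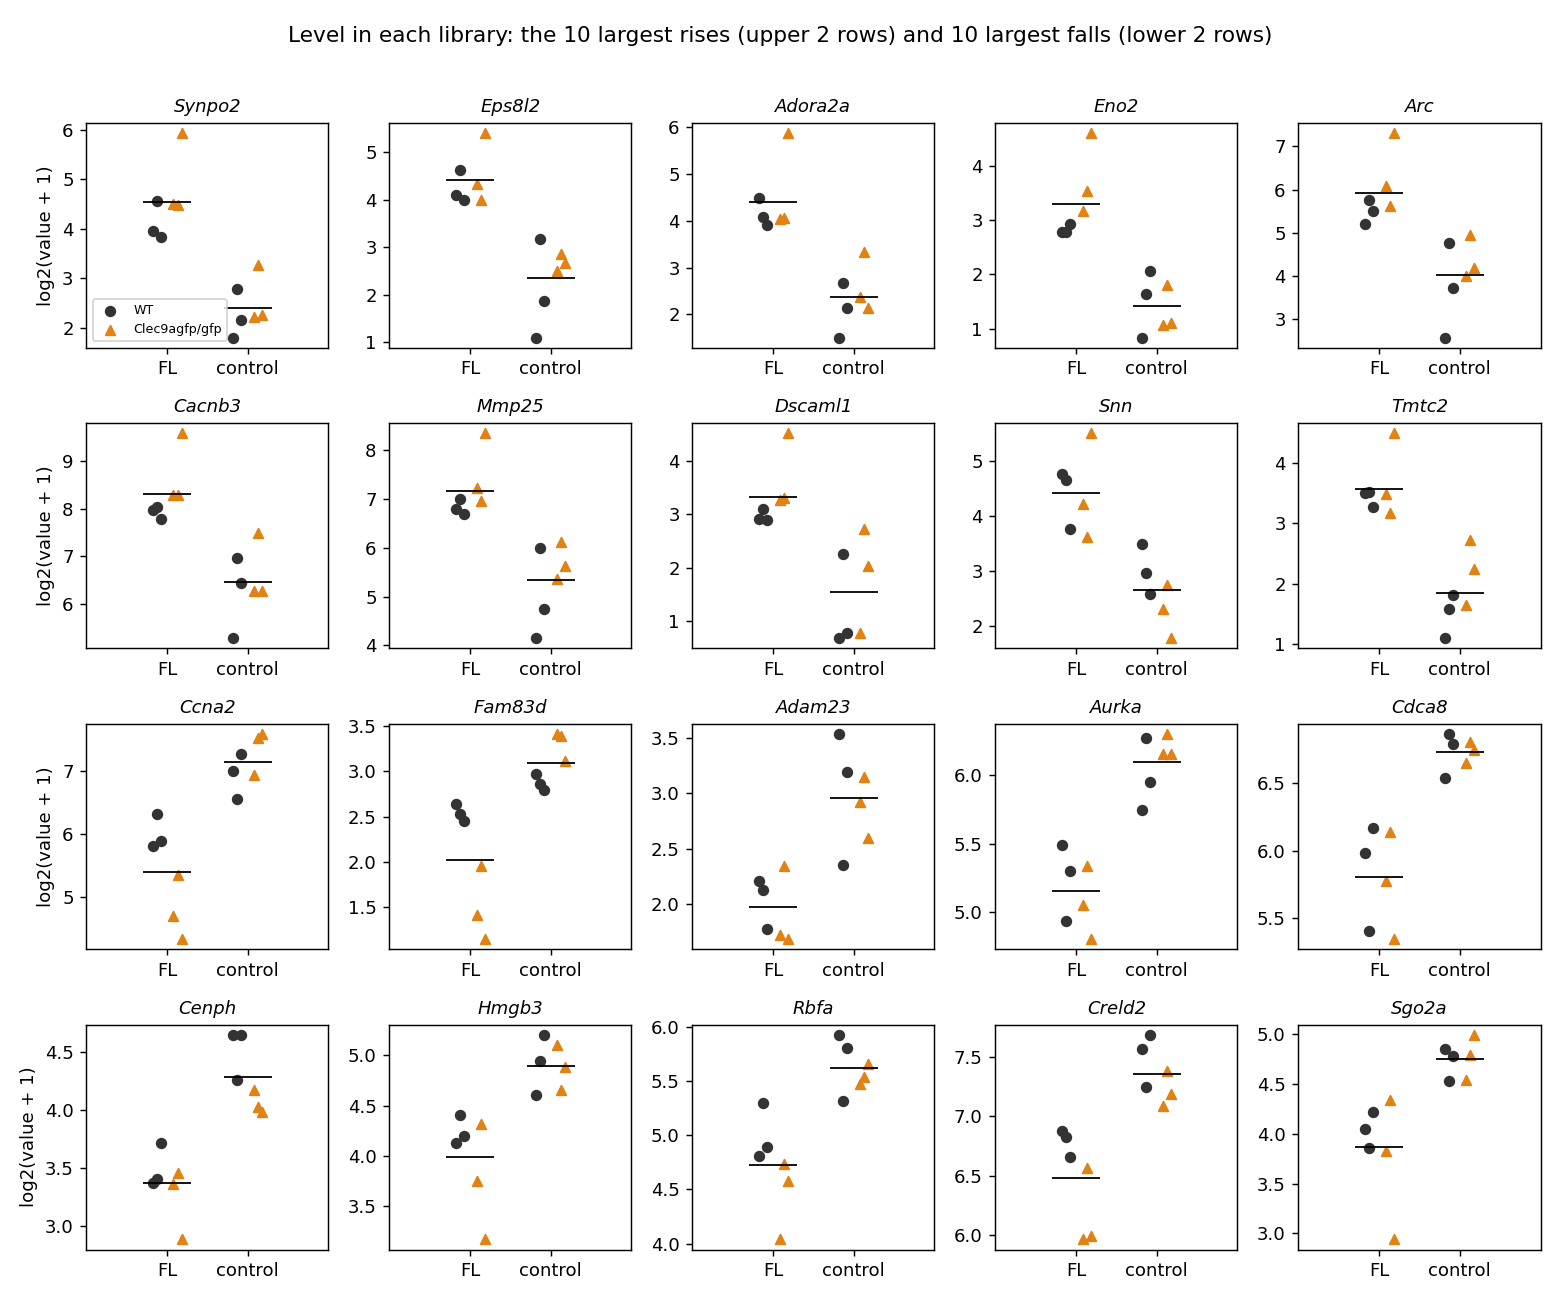
Level of each of the 10 largest rises and the 10 largest falls as log2(CPM + 1) (y axes), FL libraries left and control libraries right, with WT as black circles, Clec9agfp/gfp as orange triangles and lines at the mean of 6 libraries. No gene has an FL library among its controls, since the genes were taken from those without overlap, and Clec9agfp/gfp FL 3 sits highest among FL in each of the 10 rises.

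The 10 largest falls without overlap were headed by *Ccna2*. *Ccna2*, cyclin A2, which drives S phase and the entry to mitosis (ENSMUSG00000027715, chromosome 3, 36564865 to 36572150), had 19.3, 47.5 and 78.6 CPM in FL and 92.9, 139.5 and 189.8 CPM in control libraries. The groups did not overlap, the nearest libraries being WT FL 2 at 78.6 CPM and WT control 2 at 92.9 CPM, and within FL all 3 Clec9agfp/gfp libraries (the highest of them Clec9agfp/gfp FL 2) were below all 3 WT libraries (55.0, 58.0 and 78.6 CPM). The log2 fold change was −1.74 (SE 0.27, adjusted p = 0.00561), made of −0.94 in WT and −2.53 in Clec9agfp/gfp cDC1s, and the difference between these gave an interaction adjusted p of 0.353. *Aurka*, a mitotic kinase, had 26.9, 35.2 and 44.0 CPM with FL and 52.6, 70.4 and 78.0 CPM without (log2 fold change −0.95, SE 0.16, adjusted p = 0.00754). *Cdca8*, borealin of the chromosomal passenger complex, had 39.8, 57.9 and 70.7 CPM with FL and 91.6, 108 and 115 CPM in controls (−0.93, SE 0.16, adjusted p = 0.00815). *Aurka* was at −0.75 in WT and −1.14 in Clec9agfp/gfp cDC1s, and *Cdca8* at −0.88 and −0.97.

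*Fam83d*, a spindle protein, fell by 1.07 on the log2 scale, *Cenph* of the kinetochore by 0.92 and *Sgo2a*, which protects centromeric cohesion, by 0.88. Outside the cycle the 10 held *Adam23*, a surface protein of the disintegrin family (−0.98), *Hmgb3*, a chromatin protein (−0.90), *Rbfa*, a factor of mitochondrial ribosome assembly (−0.90), and *Creld2*, a gene of the ER stress response. *Creld2* had 61.6, 97.1 and 117 CPM in FL against 135, 158 and 205 CPM in control libraries (−0.88, SE 0.15, adjusted p = 0.00682).

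Of 100 genes of G2 and M phase tested, 47 fell and none rose, 92 had a negative log2 fold change, and the median was −0.53 (−0.33 in WT and −0.70 in Clec9agfp/gfp cDC1s). The summed level of the list was 6959 to 9668 CPM in FL libraries and 10748 to 13393 CPM in control libraries, without overlap. Like every list here, it was written with earlier results of these data known, so its direction is a description. In bulk samples fewer cells of a kind, here cells in cycle, and less RNA per cell cannot be told apart. Of 86 genes of DNA replication and S phase, 18 fell and none rose, with a median of −0.29. Among them *Asf1b*, a histone chaperone, had 60.5, 87.4 and 106 CPM in FL and 127, 141 and 153 CPM in control libraries (−0.72, SE 0.13, adjusted p = 0.00925), and *Rfc4* and *Nasp*, a clamp loader subunit and another histone chaperone, fell by 0.74 and 0.71 without overlap. Summed levels of the replication list overlapped (3892 to 6402 CPM with FL, 5271 to 7062 CPM in controls).

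Transcription of G2 and M genes is known to use 2 promoter elements, CCAAT boxes bound by NF-Y and the CHR, bound by the DREAM and B-MYB complexes. RefSeq promoters of GRCm38.p6, from 250 bases before to 50 after a start, were matched to 83 of the 100 list members (89 promoters) and searched on both strands for TTTGAA (CHR) and CCAAT, which do not overlap. TTTGAA was in 62.9% and CCAAT in 73.0% of the promoters of the list, against 17.9% and 37.4% of all 32851 promoters of the same length, and both were in 53.9% against 6.95%. The list was drawn by known function, with earlier results of these data known, so these shares describe the list and not the effect of FL. The 200 bases before the start are shown for the 4 members with the largest falls among those that hold both letters there, with CCAAT and TTTGAA, or their reverse complements, in capitals.
Fam83d (chr2:158767899-158768098, plus strand): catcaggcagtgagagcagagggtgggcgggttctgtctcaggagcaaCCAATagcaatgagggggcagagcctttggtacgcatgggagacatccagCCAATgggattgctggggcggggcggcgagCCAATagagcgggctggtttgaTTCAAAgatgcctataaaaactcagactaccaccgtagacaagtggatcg
Ube2c (chr2:164769729-164769928, plus strand): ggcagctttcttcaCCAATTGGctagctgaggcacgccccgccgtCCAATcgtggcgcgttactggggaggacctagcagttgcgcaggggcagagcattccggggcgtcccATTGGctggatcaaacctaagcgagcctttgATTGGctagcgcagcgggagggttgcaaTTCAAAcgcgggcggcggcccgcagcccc
Ccnb2 (chr9:70421555-70421754, minus strand): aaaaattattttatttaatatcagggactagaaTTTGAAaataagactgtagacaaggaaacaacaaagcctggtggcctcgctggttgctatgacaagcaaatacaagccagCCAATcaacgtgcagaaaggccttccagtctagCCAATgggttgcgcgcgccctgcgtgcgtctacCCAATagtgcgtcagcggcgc
Cdc20 (chr4:118437344-118437543, minus strand): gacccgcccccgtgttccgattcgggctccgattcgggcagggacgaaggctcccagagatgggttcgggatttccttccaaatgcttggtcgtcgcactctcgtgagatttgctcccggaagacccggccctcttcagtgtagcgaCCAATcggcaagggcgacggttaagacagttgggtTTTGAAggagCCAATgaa
These members were chosen after their values were seen. *Ube2c*, the E2 enzyme of the anaphase-promoting complex, fell by 0.91 on the log2 scale (SE 0.17, adjusted p = 0.00943), *Ccnb2*, cyclin B2, by 0.87 (SE 0.17, adjusted p = 0.0114) and *Cdc20*, an activator of that complex, by 0.79 (SE 0.15, adjusted p = 0.0108). *Fam83d* and *Ccnb2* each carry 3 CCAAT boxes in this stretch, *Cdc20* 2 and *Ube2c* 5, of which 2 overlap on opposite strands (CCAATTGG). Replication genes, matched for 69 of 86, were searched for the E2F sites TTTCCCGC and TTTGGCGC. These were each in 14.8% of their 81 promoters, against 1.07% and 0.514% of all promoters, those of genes not tested included. Promoters matched to tested genes held both sites more often than all promoters did, so this contrast would be smaller against tested genes. TTTGAA was in 17.3% and CCAAT in 59.3% of the promoters of replication genes.

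Markers of mature migratory dendritic cells had the highest median and the highest share called higher of the 38 lists with a member tested. Of 34 tested, 24 rose and none fell, and the median log2 fold change was 0.91, close in WT (0.77) and in Clec9agfp/gfp cDC1s (1.06). *Ccr7*, the receptor that guides migration to lymph nodes, had 836, 1214 and 2896 CPM in FL and 219.7, 609 and 849.8 CPM in control libraries (log2 fold change 1.32, SE 0.29, adjusted p = 0.0165). The groups overlapped by 1 FL library, WT FL 3, which lay below the highest control, Clec9agfp/gfp control 2. *Il12b*, the p40 subunit of IL-12, had 773, 1112 and 2449 CPM with FL and 167, 473 and 766 CPM without, with no overlap (1.53, SE 0.35, adjusted p = 0.0187). *Il4i1*, a secreted amino acid oxidase, rose by 1.29 (SE 0.21, adjusted p = 0.00665) with no overlap. The list was summed at 7684 to 20864 CPM in FL and 3941 to 8392 CPM in control libraries, and the top of the FL range was Clec9agfp/gfp FL 3. The markers were assembled with results of these data known, so their direction is a description.

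In a list of 36 ligands and receptors built on the B7 and TNF superfamilies, 10 rose and 2 fell (median 0.51). *Cd200*, an inhibitory ligand for myeloid cells, had 86.0, 109.6 and 244 CPM in FL and 17.3, 51.4 and 60.1 CPM in control cDC1s (1.54, SE 0.28, adjusted p = 0.00925). *Cd274*, which encodes PD-L1, had 168, 196 and 500.3 CPM with FL and 53.3, 122 and 134 CPM without (1.17, SE 0.25, adjusted p = 0.0147). *Tnfrsf1b*, a receptor of TNF, also lay higher in every FL library (1.29, SE 0.26, adjusted p = 0.0112). *Cd70*, the ligand of CD27, rose by 1.39 (SE 0.35, adjusted p = 0.0261) from a low level, with 3.43 to 20.3 CPM in FL and 1.54 to 7.44 CPM in control libraries. The ligands *Cd80* (0.53, SE 0.20, adjusted p = 0.106) and *Cd83* (0.50, SE 0.21, adjusted p = 0.146) did not pass the threshold. The 2 that fell, *Cd47*, the signal that inhibits phagocytosis, by 0.44 and *Slamf8* by 0.55, belong to neither superfamily.

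Chemokines and their receptors gave 8 rises and no fall among 27 (median 0.42, with 0.11 in WT and 1.08 in Clec9agfp/gfp cDC1s). *Cx3cl1*, fractalkine, had 21.2, 30.8 and 78.2 CPM in FL and 4.22, 14.1 and 18.1 CPM in control libraries, with no overlap (1.60, SE 0.33, adjusted p = 0.013). *Ccl5*, a chemokine that attracts T cells, had 117, 211 and 421 CPM in FL and 46.1, 75.8 and 171 CPM in control libraries (1.46, SE 0.32, adjusted p = 0.0168). Its fold change was 0.80 in WT and 2.13 in Clec9agfp/gfp cDC1s, with an interaction adjusted p of 0.523. *Ccl3* was not called (0.50, SE 0.35, adjusted p = 0.386), with −0.34 in WT and 1.35 in Clec9agfp/gfp cDC1s (interaction adjusted p = 0.455), and its values were 7.08 to 30.2 CPM with FL and 3.40 to 18.9 CPM without.

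Of 50 cytokines and cytokine receptors 17 rose and 2 fell (median 0.41). *Il4ra*, the shared receptor chain of IL-4 and IL-13, had 317, 387 and 702 CPM in FL and 83.6, 214 and 271 CPM in control libraries (1.24, SE 0.23, adjusted p = 0.00927), above in every FL library. *Il6st*, the gp130 chain, rose by 1.205 and *Il15ra*, which presents IL-15, by 1.04, while *Il15* itself rose by 0.61 (SE 0.21, adjusted p = 0.0765). For *Il15* the value was 0.10 in WT and 1.13 in Clec9agfp/gfp cDC1s, with an interaction adjusted p of 0.455. The 2 that fell were *Ifngr2* (−0.81) and *Ifnar2* (−0.40), subunits of the receptors of IFN-gamma and type I IFN. The call of *Ifnar2* was lost under 12 of 26 alternatives.

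**Figure D3:**
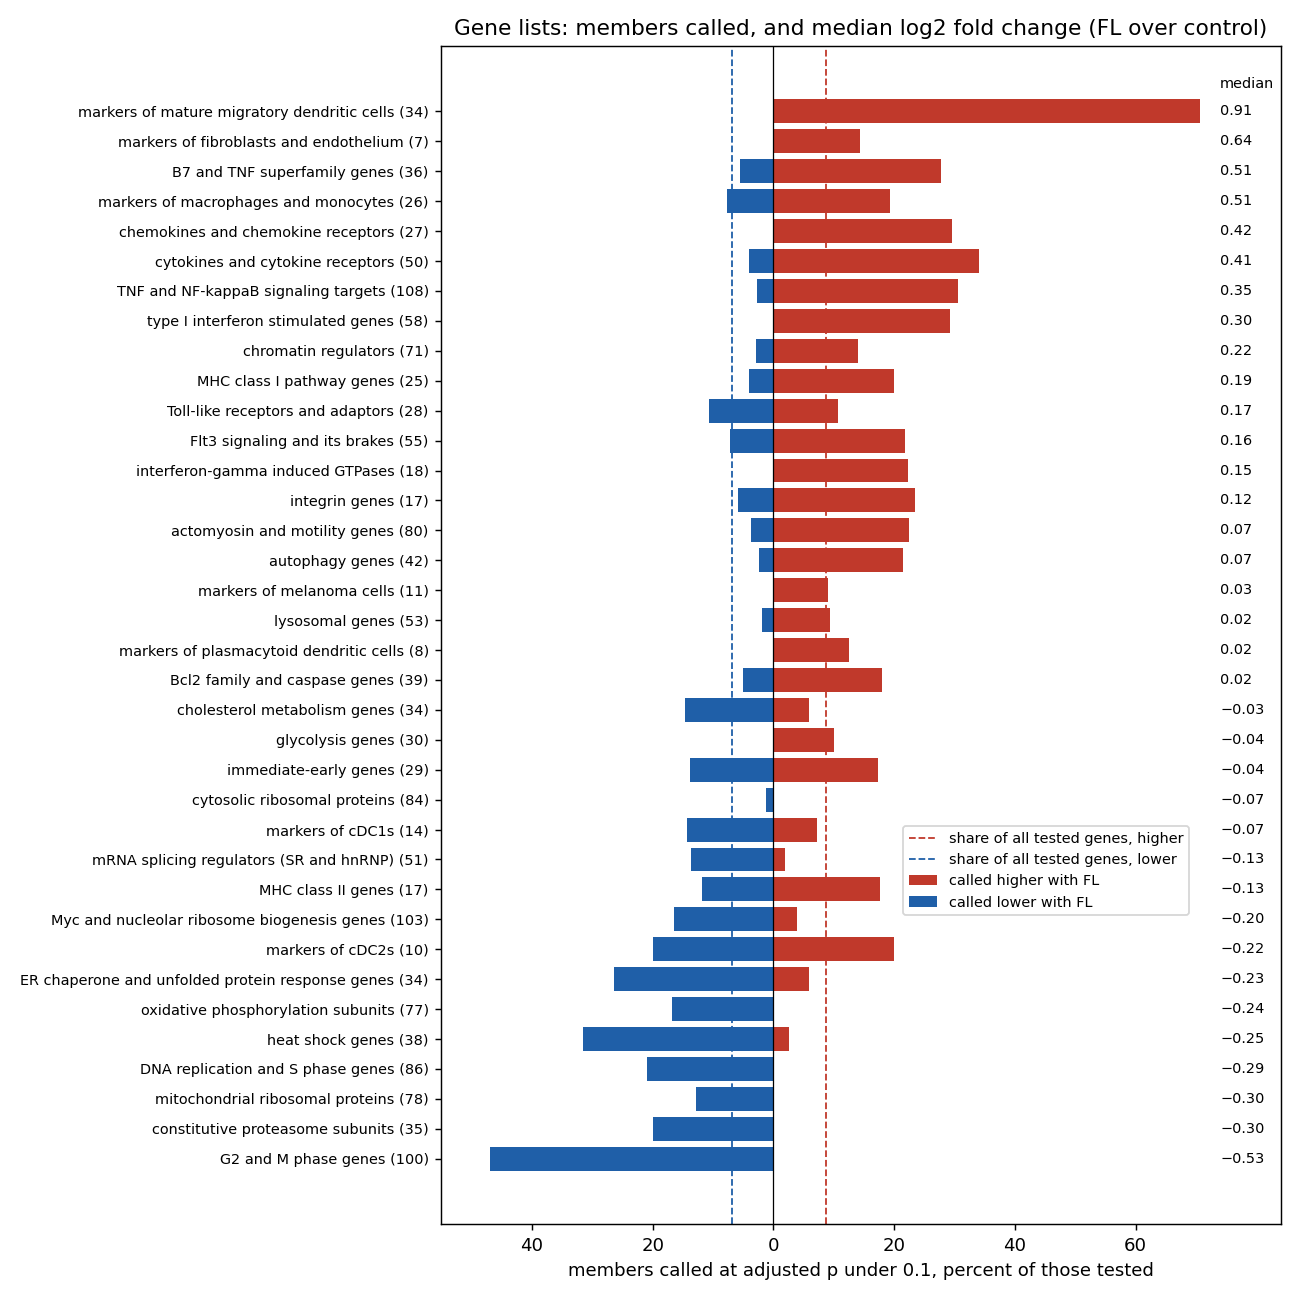
Percent of the tested members of each list called higher with FL (red, to the right) or lower (blue, to the left), for the 36 lists with at least 5 members tested, whose number stands in parentheses; dashed lines mark the 8.66% and 6.81% of all genes, and the median log2 fold change is printed at the right. Migratory dendritic cell markers lie at the top with a median of 0.91 and G2 and M phase genes at the bottom with −0.53.

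Of 108 targets of TNF and NF-kappaB 33 rose and 3 fell (median 0.35). *Rel*, the c-Rel subunit, had 144, 191 and 442 CPM in FL and 52.9, 94.9 and 130.2 CPM in control libraries (1.21, SE 0.21, adjusted p = 0.00815), and *Cflar*, an inhibitor of caspase-8, and *Ifih1*, the RNA sensor MDA5, rose by 0.88 and 0.95. Those that fell were *Dusp1*, a phosphatase of MAP kinases (−1.52), *Ifngr2* and *Ccnd2*, cyclin D2 (−0.51). Only 79.6% of this list had a promoter in the RefSeq table, so no share with an NF-kappaB element is given. GGANTTTCC, part of that element, was in 1.25% of all promoters, and the 2 members that rose and hold it within the 200 bases before the start are shown with it in capitals.
Ccrl2 (chr9:111057519-111057718, minus strand): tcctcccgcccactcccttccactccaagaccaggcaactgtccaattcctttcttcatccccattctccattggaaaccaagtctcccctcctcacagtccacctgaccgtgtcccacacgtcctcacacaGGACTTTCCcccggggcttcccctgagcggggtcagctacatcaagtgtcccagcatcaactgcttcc
Cxcl2 (chr5:90903699-90903898, plus strand): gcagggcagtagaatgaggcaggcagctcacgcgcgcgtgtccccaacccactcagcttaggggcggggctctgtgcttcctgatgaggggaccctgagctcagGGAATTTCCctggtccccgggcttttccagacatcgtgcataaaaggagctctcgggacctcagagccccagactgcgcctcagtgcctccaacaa
*Ccrl2*, a chemerin receptor, rose by 1.25 (SE 0.32, adjusted p = 0.0275) and *Cxcl2*, a neutrophil chemokine, by 0.90 (SE 0.29, adjusted p = 0.0612). Both were chosen for the element after their values were seen. *Cxcl2* was scarce, at 1.13 to 2.57 CPM in FL and 0.0713 to 1.95 CPM in control libraries.

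Of 58 genes induced by type I IFN 17 rose and none fell (median 0.30), among them *Helz2*, a coactivator helicase (1.31, SE 0.28, adjusted p = 0.015), and *Uba7*, the E1 enzyme of ISG15 (0.92, SE 0.18, adjusted p = 0.0114). Both overlapped between the groups. Of 18 GTPases induced by IFN-gamma 4 rose, including *Gbp4* (1.28), *Gbp9* (1.10) and *Gbp8* (0.97), which act on the vacuoles of intracellular pathogens. *Nlrc5*, the transactivator of MHC class I genes, had 137, 171 and 241 CPM in FL and 44.0, 79.8 and 117 CPM in control libraries (1.25, SE 0.20, adjusted p = 0.00561). Including it, 5 of 25 MHC class I pathway genes rose and 1 fell, *Pdia3* of the peptide-loading complex (−0.43). *H2-Q6* and *H2-Q7*, near-identical class Ib genes whose reads may be split between them, rose by 0.55 and 0.57. Of 17 MHC class II genes, 3 rose and 2 fell: *Ciita*, the class II transactivator, had 562, 624 and 682 CPM with FL and 297, 471 and 538 CPM without (0.48, SE 0.15, adjusted p = 0.0513), *H2-Eb2* and *Rfx5* rose by 1.27 and 0.73, and *H2-DMb2* (−0.38) and *Rfxap* (−1.10) fell. A list of 28 Toll-like receptors, adaptors and cytosolic sensing genes gave 10.7% in each direction, near the background. The 3 rises were *Irak3*, *Traf6* and *Tlr12*. The 3 falls were *Mb21d1*, which encodes the DNA sensor cGAS, by 0.91, *Tmem173*, which encodes STING, by 0.42, and *Myd88* by 0.33. *Mb21d1* and *Tmem173* act in DNA sensing in the cytosol, apart from Toll-like receptors.

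The components of Flt3 signaling, 55 tested, gave 12 rises and 4 falls (median 0.16). *Cblb*, a ubiquitin ligase that restrains receptor kinases, had 84.3, 128 and 235 CPM in FL and 26.5, 56.6 and 73.3 CPM in control libraries (1.43, SE 0.20, adjusted p = 0.00517), without overlap. *Pik3r1*, the regulatory subunit of PI3K, rose by 1.04 (SE 0.20, adjusted p = 0.0104), and *Tsc1*, a brake of mTORC1, had 26.9, 29.6 and 34.7 CPM with FL against 10.5, 17.5 and 19.8 CPM in controls (0.85, SE 0.17, adjusted p = 0.0104). *Socs1*, an inhibitor of JAK kinases (−1.07), *Ptpn11*, the phosphatase SHP-2 (−0.64), and *Map2k2*, which encodes MEK2 (−1.23), fell. *Socs1* was scarce, with a median of 1.17 CPM in FL libraries, and lost its call under 9 of 26 alternatives.

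Among the 29 immediate-early genes 5 rose and 4 fell (median −0.04). *Jun* had 28.3, 51.1 and 226 CPM in FL and 78.8, 145 and 268 CPM in control libraries (−1.46, SE 0.38, adjusted p = 0.0313), *Egr1* fell by 1.23 and *Fos* by 0.62. For *Egr1* the value was −0.37 in WT and −2.10 in Clec9agfp/gfp cDC1s (limma, interaction adjusted p = 0.455). The top FL value of *Jun* was WT FL 2, which was also the highest FL library for *Dusp1*, *Hdac2* and *Hnrnpu*. *Arc*, *Nr4a2*, a nuclear receptor (1.06, SE 0.28, adjusted p = 0.0302), and *Rgs1*, a regulator of G protein signaling (0.85), rose.

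Of 103 Myc and nucleolar ribosome biogenesis genes 17 fell and 4 rose (median −0.20). *Nop58*, a core protein of box C/D particles, had 68.6, 80.7 and 92.6 CPM in FL and 93.2, 126 and 142 CPM in control libraries (−0.58, SE 0.14, adjusted p = 0.0219), and *Imp3* and *Nop9*, both of small-subunit processing, fell by 1.53 and 1.09. *Mxd1*, which opposes Myc, was among the rises, with 176, 200.3 and 549 CPM in FL and 51.8, 106 and 153 CPM in control libraries (1.28, SE 0.26, adjusted p = 0.0114). *Mga*, another partner of Max, and *Heatr1* rose by 0.71 and 0.78. The E-box CACGTG was in 19.0% of the 100 promoters matched to the list, against 7.15% of all promoters, those of genes not tested included.

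Of 38 heat shock genes 12 fell and 1, *Hsf2*, rose (median −0.25). *Hsp90aa1*, a cytosolic HSP90, had 335, 362 and 373 CPM in FL and 407, 462 and 640.1 CPM in control libraries, and *Dnajc2* and *Hspa4* fell by 0.71 and 1.18. Of 34 ER chaperones and genes of the unfolded protein response 9 fell and 2 rose (median −0.23), with *Xbp1*, a transcription factor of that response, at −0.77 (SE 0.20, adjusted p = 0.0323). *Dnajc3*, a target of Xbp1, fell by 0.88, while *Ppp1r15a*, which reverses the phosphorylation of eIF2alpha, and *Dnajb9* rose by 0.66 and 0.58. Among 51 SR and hnRNP splicing regulators 7 (13.7%) fell, such as *Srsf6* (−0.93) and *Hnrnpa1* (−0.47), and 1 (1.96%) rose.

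Of 77 oxidative phosphorylation subunits 13 fell and none rose (median −0.24), led by *Uqcrfs1* of complex III (−0.81, SE 0.15, adjusted p = 0.00943). Of 78 mitochondrial ribosomal proteins 10 fell (median −0.30, *Mrps24* −1.34), and of 35 constitutive proteasome subunits 7 fell (median −0.30, *Psmd6* −0.49). For oxidative phosphorylation the median was −0.48 in WT and −0.02 in Clec9agfp/gfp cDC1s, for mitochondrial ribosomes −0.47 and −0.10, and for the proteasome −0.43 and −0.15, differences that were not tested. Of 84 cytosolic ribosomal proteins 1 fell, *Rps2* (−0.44), a share below the background, and the median was −0.48 in WT and 0.36 in Clec9agfp/gfp cDC1s. Scores of these lists (the median over members of the distance from each gene's mean) were high in WT control 1 and 3, at 0.67 and 0.72 for ribosomal proteins and 0.48 and 0.77 for oxidative phosphorylation, and low in the shallow Clec9agfp/gfp control 3 (−0.79 and −0.40). Their part in the medians was not tested.

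Lists on metabolism, movement and survival had smaller medians. Of 30 glycolysis genes 3 rose (10%, near the 8.66% of all genes). *Pfkfb3*, which makes the activator of phosphofructokinase, had 210.1, 237 and 464 CPM in FL and 87.8, 122 and 151 CPM in control libraries (1.15, SE 0.20, adjusted p = 0.00754). Besides *Eno2* and *Eno3*, no other enzyme of the list was called, and its median was −0.04. Of 34 cholesterol genes 5 fell (14.7%, against 6.81% of all genes) and 2 rose (5.88%, below the 8.66% of all genes). *Fdps* (−0.55) and *Acat2* (−0.54), enzymes of synthesis, were among the falls, and *Mylip*, a ubiquitin ligase, rose (0.88, SE 0.28, adjusted p = 0.0619).

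Of 80 actomyosin and motility genes 18 rose and 3 fell (median 0.07). *Myh9*, non-muscle myosin IIA, had 268, 362 and 444 CPM in FL and 89.2, 156 and 247 CPM in control libraries (1.08, SE 0.21, adjusted p = 0.0108), and *Myo1g* rose by 0.89, both without overlap. *Rhoc*, a small GTPase, had 7.63 to 18.6 CPM in FL and 3.83 to 6.26 CPM in control libraries (SE 0.21, adjusted p = 0.00815). *Vim*, vimentin, fell by 0.53 (SE 0.14, adjusted p = 0.0298), with every FL library below every control. Of 17 genes of integrins and proteins that act with them, 4 rose (23.5%) and 1 fell (5.88%), *Cd47*, which is not an integrin. *Itga4*, the alpha4 chain, had 157, 216 and 366 CPM in FL and 72.5, 109 and 144 CPM in control libraries (1.10, SE 0.19, adjusted p = 0.00785). *Itga5* rose by 0.95 and *Tln1*, which encodes talin and not an integrin, by 0.63.

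Of 42 autophagy genes 9 rose and 1, *Atg3*, fell (median 0.07). *Ambra1*, an activator of the initiation complex, had 39.2, 42.3 and 56.8 CPM in FL and 11.7, 21.2 and 31.5 CPM in control libraries (1.08, SE 0.19, adjusted p = 0.00815), and *Atg2a*, a lipid transfer protein, and *Epg5* rose by 1.54 and 1.00. Of 39 genes of the Bcl2 and caspase families and other regulators of cell death, 7 rose and 2 fell. *Birc2* and *Bcl2l1*, which restrain cell death, were at 0.77 and 0.80. The falls were *Ripk1* and *Ripk3*, kinases of necroptosis outside both families, at −0.85 and −0.55. The call of *Ripk1* was lost under 18 of 26 alternatives. Of 71 chromatin regulators 10 rose (14.1%) and 2 fell (2.82%), with a median of 0.22. *Kdm5c*, *Kdm6a* and *Kmt2d* rose by 1.11, 0.87 and 0.81. *Ezh2*, the methyltransferase of PRC2, fell to 49.7, 70.5 and 82.4 CPM with FL, against 90.3, 97.6 and 121 CPM in controls (−0.55, SE 0.14, adjusted p = 0.029). Of 53 lysosomal genes 5 rose and 1 fell (median 0.02), a share near the background, and *Lgmn*, asparaginyl endopeptidase, led them (1.28, SE 0.23, adjusted p = 0.00844).

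Identity markers of cDC1s had a median change near 0. Of 14, 1 rose and 2 fell (median −0.07), which is 7.14% and 14.3%, against 8.66% and 6.81% of all genes. The list summed to 14060 to 16514 CPM in FL and 15018 to 17479 CPM in control libraries. *Wdfy4*, which cDC1s need for cross-presentation, rose by 0.76 (SE 0.24, adjusted p = 0.06), and *Naaa* and *Cd24a* fell by 0.37 and 0.34. These calls were lost under 8, 18 and 16 of 26 alternatives. The list holds *Cd24a* and *Itgae*, which encode CD24 and CD103, both used in the sort of every library. It also holds *Clec9a*, the gene disrupted in Clec9agfp/gfp mice. The levels of these members are thus partly set by the design. Of 10 cDC2 markers 2 rose (*Itgam* and *Irf4*) and 2 fell (*Mgl2* and *Tbx21*), with a median of −0.22. The calls of *Itgam*, *Irf4* and *Tbx21* were lost under 11, 14 and 15 alternatives. Of 8 plasmacytoid dendritic cell markers 1 (12.5%) rose, *Spib* (SE 0.29, adjusted p = 0.0103), at 4.54 to 18.0 CPM with FL and 0.796 to 3.14 CPM without.

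Transcripts of other cells were present beside these changes. Of 26 macrophage and monocyte markers 5 rose (19.2%) and 2 fell (7.69%, near the 6.81% of all genes). The median was 0.51, with 0.06 in WT and 0.84 in Clec9agfp/gfp cDC1s, and the list summed to 2009 to 2610 CPM in FL and 1800 to 3100 CPM in control libraries. *C1qa* and *C1qb*, complement genes of macrophages, rose by 1.03 and 0.86 at 7.28 to 14.4 and 21.3 to 36.0 CPM with FL, *Ly6c2* rose by 0.65, and *Cd68* and *Spp1* fell by 0.42 and 0.46. The calls of *C1qb*, *Ly6c2* and *Cd68* were lost under 9 of 26 alternatives each, and that of *Spp1* under 16. Fibroblast and endothelial markers gave 1 rise among 7 (14.3%), *Kdr* (0.87), and summed to 21.1 to 99.8 CPM in FL and 12.6 to 61.5 CPM in control libraries. The call of *Kdr* was lost under 12 of 26 alternatives. Of 11 melanoma markers 1 rose, *Cd63*, a share of 9.09%, near the 8.66% of all genes. Other cells share *Cd63*, which alone was 115 to 331 CPM in FL and 37.7 to 157 CPM in control libraries. The list, *Cd63* included, summed to 159 to 387 CPM in FL and 61.6 to 203 CPM in control libraries. T and NK cell markers were 3 tested of 17 (*Gzmb* rose, *Klrd1* fell), summing to 7.23 to 15.9 CPM with FL and 10.8 to 21.6 CPM in controls. Of the B cell markers only *Ighm* was tested (−0.30, SE 0.15, adjusted p = 0.241), and no neutrophil marker of 12 was in the table. Clec9agfp/gfp FL 3 had the highest score of the migratory, macrophage, and fibroblast and endothelial lists at once (1.25, 0.77 and 1.45). The part of these transcripts in the results was not tested.

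**Figure D4:**
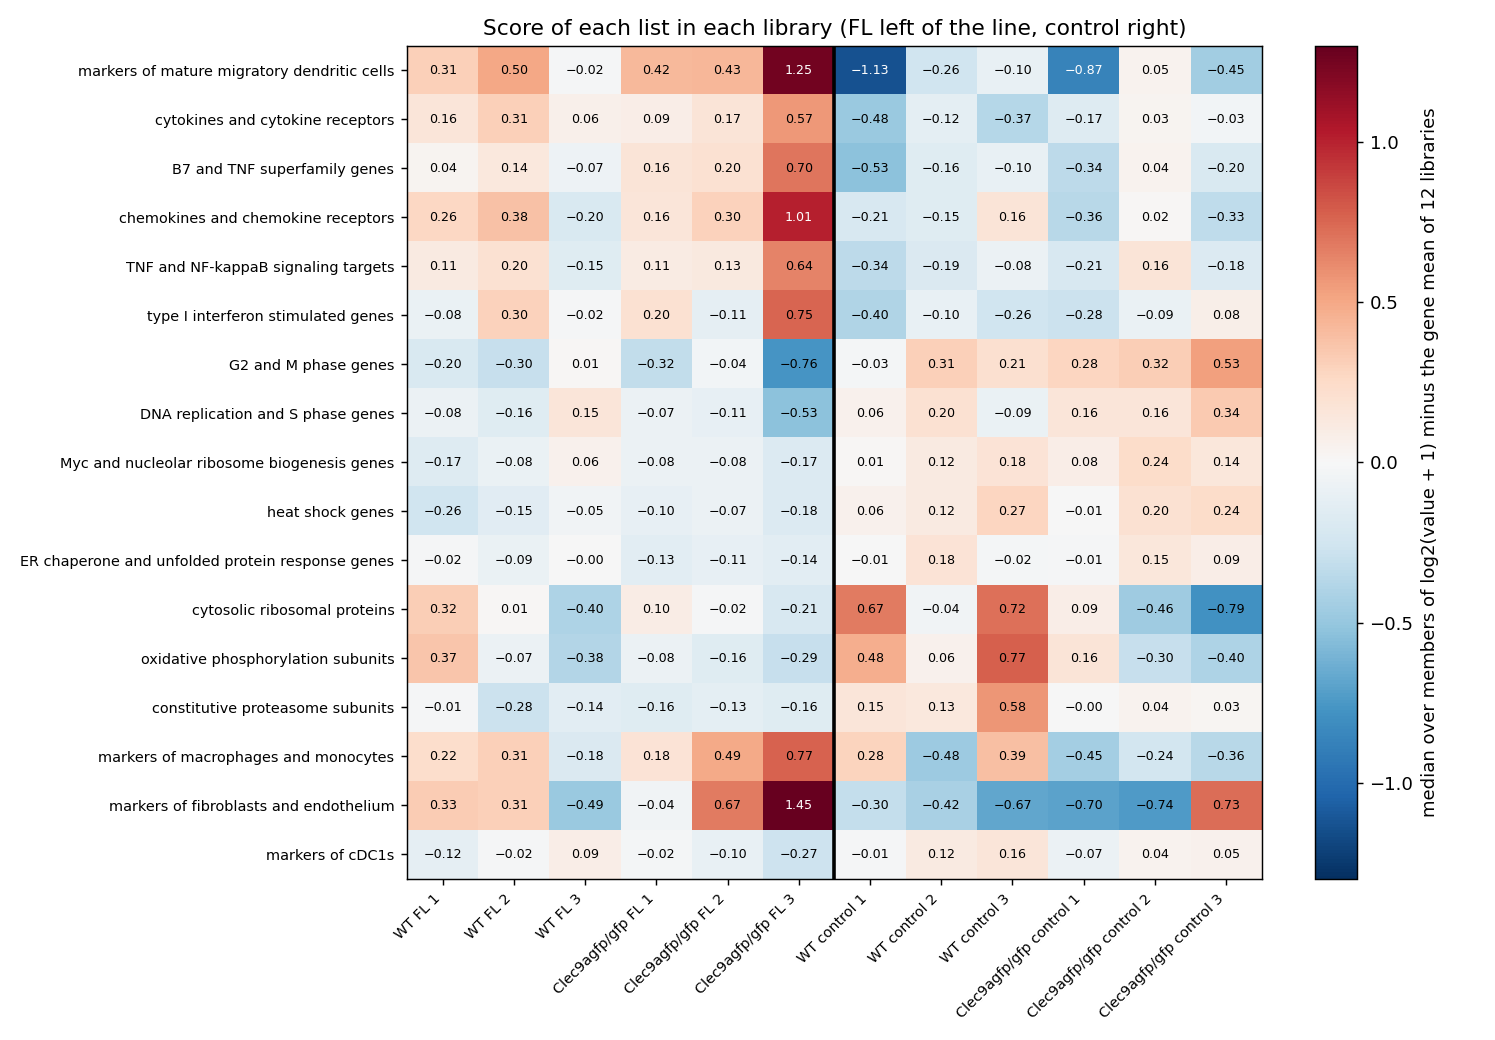
Score of 17 lists (rows) in the 12 libraries (columns, FL left of the line and control right), as the median over members of log2(CPM + 1) minus the gene's mean over all libraries, red above and blue below it. Migratory markers run from −0.02 to 1.25 in FL and from −1.13 to 0.05 in control libraries and Clec9agfp/gfp FL 3 has the highest of them.

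The effect had the same sign in WT and in Clec9agfp/gfp cDC1s for 7051 of the 11255 genes (62.6%). Across genes, which are not independent replicates, the log2 fold changes of the 2 genotypes correlated with Pearson's r = 0.42 and Spearman's coefficient = 0.38, from separate libraries. No gene had an interaction of genotype and FL at an adjusted p under 0.1 by limma (0%, smallest adjusted p 0.316), with 1027 genes at an unadjusted p under 0.05, and limma-voom gave 0 and 1010. The 1027 of 11255 genes are more than such a threshold passes by chance on average, so equal effects in the genotypes were not shown. Of the 1742 called genes, 199 had an unadjusted interaction p under 0.05 by limma. *Ccna2*, *Fam83d* (−0.33 in WT and −1.80 in Clec9agfp/gfp), *Nop9* (−0.29 and −1.90 in the same order), *Cd70* (0.57 and 2.21) and *Itga5* (1.63 and 0.27) were among them. So were *Egr1* (−0.37 and −2.10), *Hspa4* (−0.44 and −1.91), *Dnajc3* (−0.38 and −1.38), *C1qa* (0.47 and 1.59), *Eno3* (0.31 and 1.40) and *Atg2a* (2.25 and 0.84). Over both plasmids 3 genes (0.0267%) differed between genotypes, with *Clec9a* at a log2 fold change of −7.12 for Clec9agfp/gfp over WT.

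**Figure D5:**
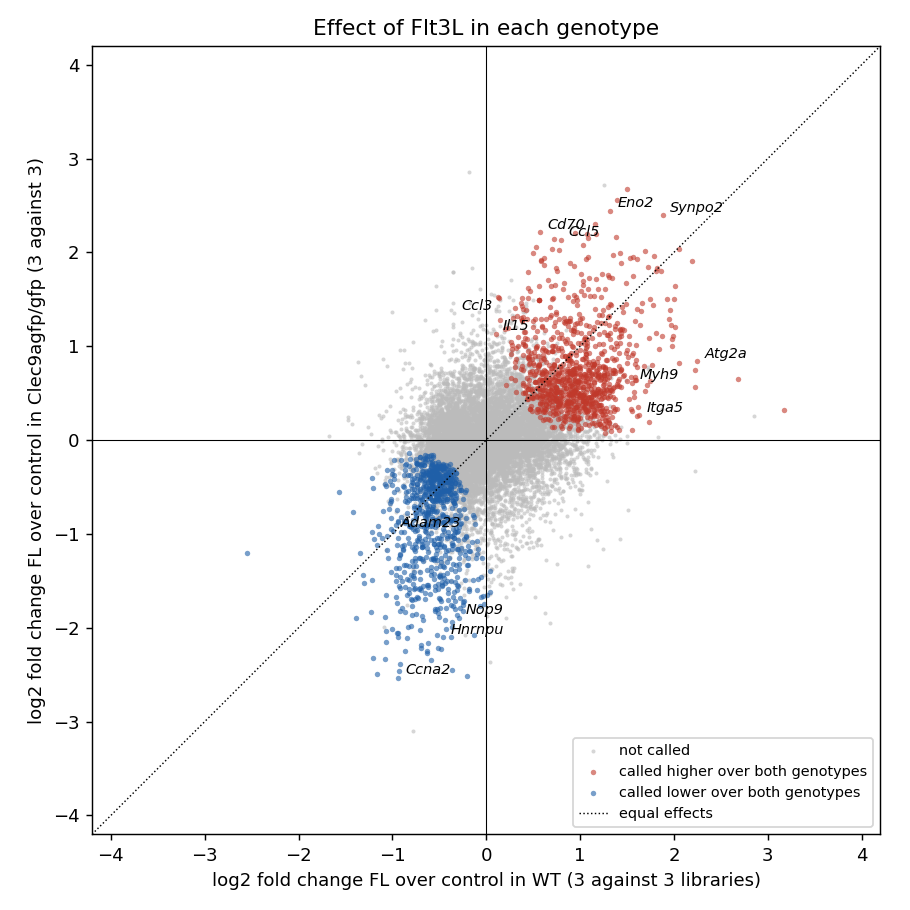
Log2 fold change of FL over control in WT (x axis, 3 against 3 libraries) and in Clec9agfp/gfp cDC1s (y axis, 3 against 3) for each gene tested, with genes called over both genotypes in red (higher) and blue (lower) and the dotted line at equal effects. Called genes fill the upper right and lower left because the call uses their average, and *Ccna2* lies at −0.94 and −2.53.

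The number of calls depended on single libraries. Without Clec9agfp/gfp FL 3, 525 genes rose and 314 fell, of which 519 and 313 were also called with all libraries. Migratory markers then counted 17 rises in place of 24 (median 0.77), G2 and M phase genes 31 falls in place of 47 (median −0.42), TNF and NF-kappaB targets 18 rises in place of 33, B7 and TNF superfamily genes 6 in place of 10 and replication genes 8 falls in place of 18. Without WT FL 2, 640 genes rose, and 505, 447, 454 and 412 genes fell without WT FL 1, Clec9agfp/gfp FL 1, WT control 3 and Clec9agfp/gfp control 2, each below 767 by a factor of more than 1.5. Other lists moved by more than 1.5 times with several libraries. Type I IFN genes had 7 rises without Clec9agfp/gfp FL 3, 8 without WT FL 2, 10 without Clec9agfp/gfp control 2 and 11 without Clec9agfp/gfp FL 1 or WT control 3. Chemokine genes had 4 rises without Clec9agfp/gfp FL 3 or Clec9agfp/gfp control 1 and 5 without WT FL 1 or Clec9agfp/gfp FL 1. Macrophage markers had 1 to 3 rises without any 1 library other than WT FL 3 (7), WT control 1 (9) and WT control 3 (7), and 10 with quality weights. Heat shock genes had 2 falls without Clec9agfp/gfp FL 3, 4 without WT FL 1, Clec9agfp/gfp FL 1 or Clec9agfp/gfp control 2, 5 without WT FL 2 or WT control 3 and 7 without Clec9agfp/gfp control 3. ER genes had 2 falls without Clec9agfp/gfp FL 3, 3 without WT FL 2, 4 without WT control 3 or Clec9agfp/gfp control 2 and 5 without WT FL 1. Ribosome biogenesis genes had 7 falls without Clec9agfp/gfp FL 3, 8 without WT control 3, 9 without Clec9agfp/gfp FL 1 or Clec9agfp/gfp control 2 and 11 without WT FL 1 or WT FL 2. Oxidative phosphorylation genes had 6 falls without WT FL 2, 7 without Clec9agfp/gfp FL 3 and 8 without WT FL 3, WT control 3 or Clec9agfp/gfp control 2. Proteasome genes had 2 falls without WT FL 2, Clec9agfp/gfp FL 3 or Clec9agfp/gfp control 2, 3 without Clec9agfp/gfp FL 1 or WT control 3, 4 without WT FL 1 or WT FL 3 and 11 without WT control 2. Without all 3 libraries that stood apart, which leaves WT control with 1 library assumed to vary like the others, 70 genes rose and 17 fell, with 6 migratory markers up (median 0.72), 4 TNF and NF-kappaB targets up and 11 G2 and M phase genes down (median −0.49). No gene called with all libraries turned its sign in any of these fits.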

How the data were processed

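RNA-seq of tumor cDC1s gave 1 table of 12 libraries, whose groups and replicate numbers came from the sample titles. The submitters' processing notes name CASAVA 1.8.2, cutadapt 1.3 and RSEM 1.2.3 on GRCm38 with the mouse transcriptome, and the methods state TMM normalization in limma. The deposited values are a normalized signal: each equals a whole count plus 0.5 over the effective library size, within 0.02 counts for all values of all columns, and is written as CPM. Kits did not mark strand, so overlapping genes cannot be told apart. The table held 11264 genes, 106 of them without a symbol, and its filter for low genes is not given in the sources used here.

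Values were taken to log2(CPM + 1), and the 11255 genes with a mean of at least 1 were fitted with limma 3.58.1 in R 4.3.3 (plasmid and genotype, trended moderation), with Benjamini-Hochberg adjustment over all of them and a threshold of 0.1. The interaction came from a fit with 1 mean per group. Fold changes of low genes are understated by the pseudocount. The script was tested on simulated data. Genes named were *Clec9a* and *Flt3*, the 10 largest changes in each direction among called genes with a mean of at least 5 and no overlap, up to 3 called members with the smallest p of each list and direction, and the 8 genes that the paper names for these libraries. Predicted genes were left out of the 10. Members and lists were chosen with earlier results of these data known. Coordinates came from GENCODE M21 and promoters from RefSeq (GRCm38.p6), matched by symbol and synonym to 8617 tested genes. This is 76.6% of them, and 76.1% and 78.9% of the genes called higher and lower, so motif shares over these sets are void. Lists were therefore set beside all promoters, which include genes not tested. Among promoters matched to tested genes, CACGTG and both E2F sites were more frequent than among all promoters, and TTTGAA was less frequent. The contrasts given for CACGTG and the E2F sites would thus be smaller against tested genes. Alternatives covered the pseudocount, filter, scaling, thinning to 3.06 M counts, limma-voom, weights, model terms, the replicate block and each library left out. Deviations correlated above 0.1 in 5 of 18 same-numbered pairs of libraries, so the numbers were not taken to pair them. Some members of the lists are counted but not reported by name here.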

Additional observations from a re-analysis of the deposited data

Results flagged for a closer look

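In 28 of 316 groups of 6 libraries (8.86%) 1 library lay so far from the others that its gap to the nearest, divided by the range of the group, was above 0.625. For a single group drawn from 1 normal distribution, chance gives about 1 in 20. The groups here mix 2 genotypes, share the same 12 libraries and mostly hold genes picked by their values. The 8.86% can therefore not be compared with that rate. The groups were the FL and the control libraries of each named gene, on the log2 scale, and of the effective library size, and the gap ratio is given in parentheses. Clec9agfp/gfp FL 3 was the highest FL library for 16 genes: *Adora2a* (0.702), *Cacnb3* (0.723), *Cd200* (0.709), *Cd274* (0.764), *Cd83* (0.664), *Dscaml1* (0.74), *Il12b* (0.629), *Il4ra* (0.696), *Mmp25* (0.678), *Mxd1* (0.657), *Myo1g* (0.838), *Pfkfb3* (0.644), *Ppp1r15a* (0.918), *Synpo2* (0.653), *Tmtc2* (0.739) and *Tnfrsf1b* (0.68). It was the lowest FL library for *Sgo2a* (0.633). WT FL 2 was the highest FL library for 7 genes, all of which fell with FL: *Dusp1* (0.735), *Hdac2* (0.703), *Hnrnpu* (0.671), *Hspa4* (0.689), *Jun* (0.656), *Rfxap* (0.728) and *Ripk1* (0.635). Among control libraries, Clec9agfp/gfp control 1 was highest for *Ifih1* (0.662) and lowest for *Nop58* (0.644), WT control 3 was highest for *Ndufa9* (0.662), and Clec9agfp/gfp control 3 had the smallest effective library size (0.633). Groups of 3 libraries were not examined in this way.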

How the results depend on the processing

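No gene called with all libraries changed sign under any of 26 alternatives. With equal column totals 1077 genes rose and 493 fell, so 68.6% of calls were rises, against 56.0% with the deposited scaling, and the median of all genes moved to 0.05. Leaving out 1 library gave 525 to 1175 rises, 314 to 947 falls and 0 to 22 genes with an interaction, the 22 without WT control 2. Without the 3 libraries that stood apart there were 70 rises, 17 falls and 1 interaction. Without Clec9agfp/gfp FL 3 and the shallow Clec9agfp/gfp control 3, a choice made after seeing the data, there were 398 rises and 172 falls. The pseudocounts (958 to 962 rises), filters (943 to 976), equal upper quartiles (1107 and 680 falls), thinning to the shallowest library (824 and 607), limma-voom (985 and 782), quality weights (831 and 771) and other model terms (826 to 1081) kept these totals within 1.5 times. List counts moved further: ribosome biogenesis falls went to 10 and proteasome falls to 3 on thinning, and proteasome falls to 12 with 1 mean per group. Equal column totals gave 7 heat shock, 5 ER, 11 ribosome biogenesis and 4 proteasome falls. Macrophage rises were 3 with the replicate block. A replicate block gave 914 rises and 671 falls. The numbers are not stated to mark a shared day, and 5 of 18 same-numbered pairs of libraries correlated above 0.1 (−0.22 to 0.34), so no pairing is claimed. Of 152 named genes called, 27 kept the call under all 26 alternatives and 120 under all but those that leave out libraries. Calls were lost most often for *Ripk1* and *Naaa* (18 alternatives each), *Klrd1* (17), *Cd24a*, *H2-DMb2* and *Spp1* (16 each). *Tbx21* (15), *Irf4* (14), *Rfx5* and *Myd88* (13 each) followed. *Kdr* and *Ifnar2* (12 each) and *Acat2*, *Itgam*, *Pdia3* and *Rps2* (11 each) came next. *Cd80* was called under 5 alternatives and *Cd83* under 2. The list of 3 T and NK cell markers went to a median of −0.70 under the stricter filter, with fewer members, and chemokines to 0.83 under limma-voom. edgeR and DESeq2 were not run, since the deposited values are normalized. Depth limits the lowest genes named, such as *Socs1* and *Enah*, with FL medians of 1.17 and 0.771 CPM.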
